A study of Mus musculus with 8 samples.

Results

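Histones are marked by enzymes that add chemical groups to their tails, called writers, and by enzymes that remove them, called erasers. The genes of these enzymes were described in cultured mouse cortical neurons, in wild type and in a knockout of the histone variant H2BE. They were chosen by name from the authors' deposited table of 26229 genes: symbols that begin with Kdm (lysine demethylases), Kmt (lysine methyltransferases), Hdac and Sirt (deacetylases), Setd (SET-domain proteins) or Kat with a digit (acetyltransferases), and 15 further named genes such as Ezh2, Dot1l and Usp22. A count minimum of 10 (mean normalized count) was required, and Kdm5d, which lies on the Y chromosome, was left out. This gave 77 genes, all of them tested, of which 40 were counted as writers, 36 as erasers and 1, Kdm4dl, which the GENCODE annotation lists as an unprocessed pseudogene, was given no role; the other 76 are annotated as protein coding. The count minimum removed no gene with such a name, and the lowest count was that of Kdm4dl at 16.0.

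The cells came from the cortex of mouse embryos at E16.5 and were kept as primary neurons for 12 days, with 4 libraries labelled WT and 4 labelled H2BE-KO/mCherry-KI, in which mCherry was knocked in. Polyadenylated RNA was sequenced from a stranded library kit. The labels name the libraries of each genotype biological replicates and give no strain, no sex and no litter. The table holds the authors' DESeq2 comparison, that is, for each gene a mean normalized count over all 8 libraries, a log2 fold change with its standard error (SE), and an adjusted p; values of single libraries were not analysed here, so the SE carries the spread between replicates. The header names no direction. The targeted gene H2bc21 (ENSMUSG00000068854) was taken to be lower in the knockout, which set its log2 fold change at -3.45 (SE 0.19, adjusted p = 4.49e-68) and every other sign as knockout over wild type; with the opposite reading, each "rose" and "fell" would swap. Levels in each genotype, where given, are those implied by the deposited mean and fold change for groups of equal size, for example 2033 normalized counts in wild type and 185 in the knockout for H2bc21. A gene was called at an adjusted p under 0.05 over all tested genes.

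Methylation is written on single lysines by enzymes with a SET domain, or by the unrelated Dot1l, and is read according to its place: on H3K4 and H3K36 it accompanies active genes, on H3K9 and H3K27 repressed ones. Acetylation of histone tails loosens the contact of histones with DNA and goes with active genes, and ubiquitin on H2B is linked to passage of RNA polymerase through a gene. Neurons no longer divide, and many of these genes are known from neurodevelopmental disorders, in which loss of a single copy is enough to cause disease.

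Of the 77 genes, 16 rose and 5 fell in the knockout and 56 did not pass. The called share was 27.3%, against 21.8% of all 18085 tested genes and 30.6% of the 6808 tested genes whose mean count reached 1000. Among all tested genes 11.0% were higher and 10.9% lower, and among the abundant ones 15.6% and 15.0%. Of the 52 enzyme genes in that abundant range, 12 rose and 4 fell, or 30.8% in all, so the number of calls was close to that of other genes as abundant. The calls lay mostly on the higher side, 23.1% against 15.6% for rises and 7.69% against 15.0% for falls; this split was not tested. Of all 77, 50 had a log2 fold change above 0 (64.9%, against 47.8% of all tested genes), and their median was 0.14, against -0.02. No called gene reached a change of log2 1, whereas 31.2% of all called genes in the table did, and the largest called change was 0.86. The calls rest on the normal distribution that DESeq2 assumes. When t with 6 degrees of freedom took its place, 0 of the 77 passed, beside 1 of all 18085 tested genes. With an empirical null 0 of the 77 passed, beside 84 of all tested genes. Both alternatives are strict. The t distribution leaves out that DESeq2 shares its estimates of spread between genes. The empirical null takes its scale from all statistics, those of called genes included. Neither can therefore show how many of the calls are true. By the t distribution 24 of the 77 had an unadjusted p under 0.05.

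Of 40 writers 10 rose and 3 fell, and 30 lay above 0, at a median log2 fold change of 0.17. Of 36 erasers 6 rose and 2 fell, and 20 lay above 0, at a median of 0.08. The called shares were 32.5% and 22.2%, beside 21.8% of all tested genes and 30.6% of the abundant ones. The middle 50% of writers lay between 0.01 and 0.32 and of erasers between -0.08 and 0.30, so the ranges overlapped almost fully. Some of these genes encode non-catalytic subunits, or enzymes that act mainly outside the nucleus or on other proteins. Without them (rule in the last section), 8 of 32 writers rose and 2 fell, and 5 of 29 erasers rose and 0 fell. The called eraser falls left out in this way were Sirt2 and Sirt3. Demethylases had a median of 0.26 and 4 of 17 rose and none fell; the writers of lysine methylation had a median of 0.24, and 8 of 25 rose and 2 fell. For acetylation the 9 writers had a median of -0.03 and the 18 erasers of -0.04. The ranges of the methylation and acetylation genes overlapped on both sides. No difference between these groups of genes was tested, since genes are not replicates.

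**Figure D1:**
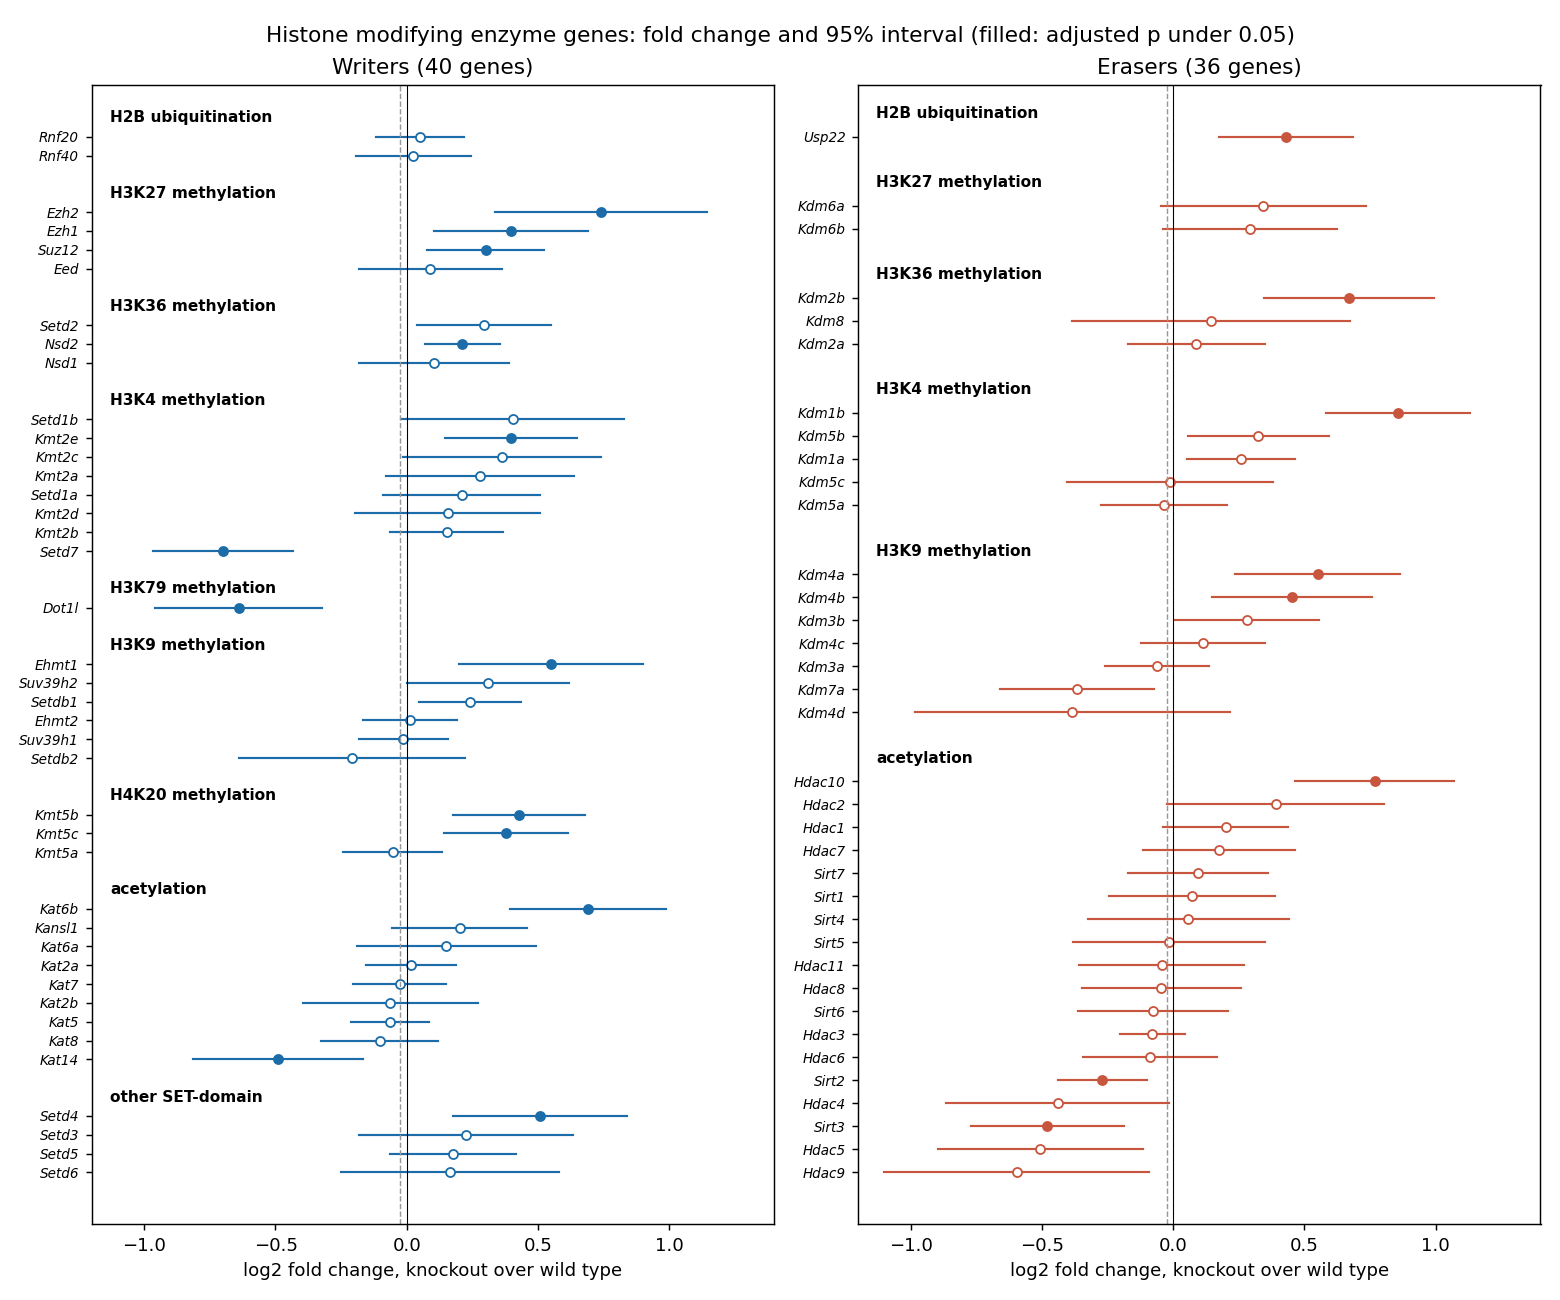
Log2 fold changes (horizontal axis, knockout over wild type) with 95% intervals for 40 writers (left, blue) and 36 erasers (right, red), grouped by mark; filled points passed an adjusted p of 0.05, and the dashed line is the median of all tested genes. Of the filled points 16 lie above 0 and 5 below, from -0.70 for Setd7 to 0.86 for Kdm1b.

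Methylation of H3K27 is written by the Polycomb repressive complex 2, whose catalytic subunit is either Ezh2, used mainly by dividing and immature cells, or Ezh1, which prevails in mature neurons. Of its 4 core genes chosen here, 3 rose and the fourth did not pass, whereas 11.0% of all tested genes were called higher. In the authors' deposited table Ezh2 had a mean normalized count of 174, with implied levels of 130 in wild type and 218 in the knockout, a rise of 1.67-fold (log2 0.74, SE 0.21, adjusted p = 0.0033). Ezh1 was several times more abundant per exon length, at 195 against 26.1 normalized counts per kb, and rose 1.32-fold (adjusted p = 0.0408). Suz12, a core subunit that stabilizes the complex, rose 1.23-fold from an implied 1591 to 1959 (adjusted p = 0.0426). Eed, the subunit that binds the finished mark, was at a log2 fold change of 0.09 (SE 0.14), with a 95% interval from -0.18 to 0.36 that holds the value of Suz12. The calls of Ezh1 and Suz12 were near the threshold, and that of Ezh1 did not hold after a linear trend of the Wald statistic on exon length and GC was taken out (adjusted p = 0.0702). The erasers counted under this mark, Kdm6a and Kdm6b, had log2 fold changes of 0.34 (SE 0.20) and 0.29 (SE 0.17) and did not pass. Kdm7a, which also removes H3K27 methylation but was counted under H3K9, lay below 0 (-0.37, SE 0.15) and did not pass.

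For the 3 called genes of the complex, the stretches of 150 bases just before the RefSeq start are shown (GRCm38.p6, written 5′ to 3′ on the gene's strand). Capitals mark the GC box GGGCGG on either strand, the usual site of Sp and Klf factors. Ezh2 is at chr6:47595031-47595180 on the minus strand, Ezh1 at chr11:101226464-101226613 on the minus strand and Suz12 at chr11:79992956-79993105 on the plus strand. The Ezh2 stretch lies inside the gene as GENCODE annotates it, whose 5′ end is further upstream, at 47595341.
Ezh2: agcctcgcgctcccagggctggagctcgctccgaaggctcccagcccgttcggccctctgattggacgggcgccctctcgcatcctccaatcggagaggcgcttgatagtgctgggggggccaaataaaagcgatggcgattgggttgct
Ezh1: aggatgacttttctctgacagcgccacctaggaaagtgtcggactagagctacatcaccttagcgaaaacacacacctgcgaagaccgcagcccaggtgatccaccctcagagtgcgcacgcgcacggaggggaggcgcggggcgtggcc
Suz12: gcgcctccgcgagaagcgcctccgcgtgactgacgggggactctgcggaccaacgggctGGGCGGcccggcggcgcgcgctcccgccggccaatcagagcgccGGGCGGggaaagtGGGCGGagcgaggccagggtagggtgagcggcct
Suz12 held 3 GC boxes in this stretch and 23 CpG pairs, whereas Ezh2 and Ezh1 held no GC box and 13 and 12 CpG pairs. The E2F motif TTTGGCGC was found in the 300-base window (250 before to 50 after the start) of Ezh2, starting at base 4 after the start, and in none of the windows of the other 60 enzyme genes that had one; 16 enzyme genes had no window to search. Of all promoters 0.514% hold it. A match of letters is not a site of binding.

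On H3K4 the writers of the MLL and SET1 family (Kmt2a to Kmt2e, Setd1a and Setd1b) all lay above 0, from 0.15 for Kmt2b to 0.40 for Setd1b, with a median of 0.28. These genes are long, with a median of 12068 exon bases, and after the trend on exon length and GC was taken out their median was 0.18, with all 7 still above 0; Kmt2d then stood at 0.04, from 0.16. Only Kmt2e passed, rising 1.32-fold from an implied 4884 to 6432 normalized counts (log2 0.40, SE 0.13, adjusted p = 0.0124, authors' deposited table). Kmt2e binds methylated H3K4 and has little or no activity of its own in most assays. Setd1b had the same size of change with a wider error (0.40, SE 0.22, adjusted p = 0.177). Setd1a (0.21, SE 0.15) shares 52.3% of its exon bases with other genes, so its value is uncertain. Setd7, a methyltransferase that acts on H3K4 in the test tube and on many other proteins in cells, went the other way. It fell to 61.5% of wild type, from an implied 5049 to 3107 (log2 -0.70, SE 0.14, adjusted p = 9.45e-06), the largest fall among the called enzyme genes. Among the erasers, Kdm1b (LSD2), a flavin-dependent demethylase of H3K4, rose 1.81-fold from an implied 822 to 1488 (log2 0.86, SE 0.14, adjusted p = 7.19e-08). This was the smallest adjusted p and the largest rise of all 77 genes. Its paralog Kdm1a (LSD1), more abundant per exon length (1067 against 210.2 normalized counts per kb), was at 0.26 (SE 0.10, adjusted p = 0.0602), and the intervals of the pair, 0.58 to 1.13 and 0.05 to 0.46, did not overlap. The difference between them was not tested. Kdm5a (-0.03), Kdm5b (0.33) and Kdm5c (-0.01), which remove the fully methylated state, did not pass.

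Dot1l is the only methyltransferase known for H3K79, and it fell to 64.2% of wild type in the authors' deposited table, from an implied 3084 to 1979 normalized counts (log2 -0.64, SE 0.16, adjusted p = 0.00103). To set the strongest rise beside the largest falls, the 150 bases before the starts of Kdm1b, Setd7 and Dot1l are shown, with the GC box in capitals as before (GRCm38.p6). Kdm1b is at chr13:47043349-47043498 on the plus strand, Setd7 at chr3:51560824-51560973 on the minus strand and Dot1l at chr10:80755053-80755202 on the plus strand. The Setd7 stretch lies partly inside the gene as GENCODE annotates it, with its 5′ end at 51560879.
Kdm1b: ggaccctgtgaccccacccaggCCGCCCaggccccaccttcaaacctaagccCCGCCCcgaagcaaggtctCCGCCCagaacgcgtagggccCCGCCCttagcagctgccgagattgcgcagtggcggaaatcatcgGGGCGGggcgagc
Setd7: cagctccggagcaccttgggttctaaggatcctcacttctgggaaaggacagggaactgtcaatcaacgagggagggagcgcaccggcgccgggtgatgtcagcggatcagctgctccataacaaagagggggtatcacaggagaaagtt
Dot1l: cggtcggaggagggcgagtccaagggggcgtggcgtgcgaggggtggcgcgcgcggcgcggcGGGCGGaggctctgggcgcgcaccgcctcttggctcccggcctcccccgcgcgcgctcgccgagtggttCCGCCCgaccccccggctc
Kdm1b held 5 GC boxes in this stretch, Dot1l 2 and Setd7 none. Dot1l was the richest in CpG pairs, with 27, against 13 and 7. Setd7 and Dot1l, which both fell, thus differed widely in this stretch.

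**Figure D2:**
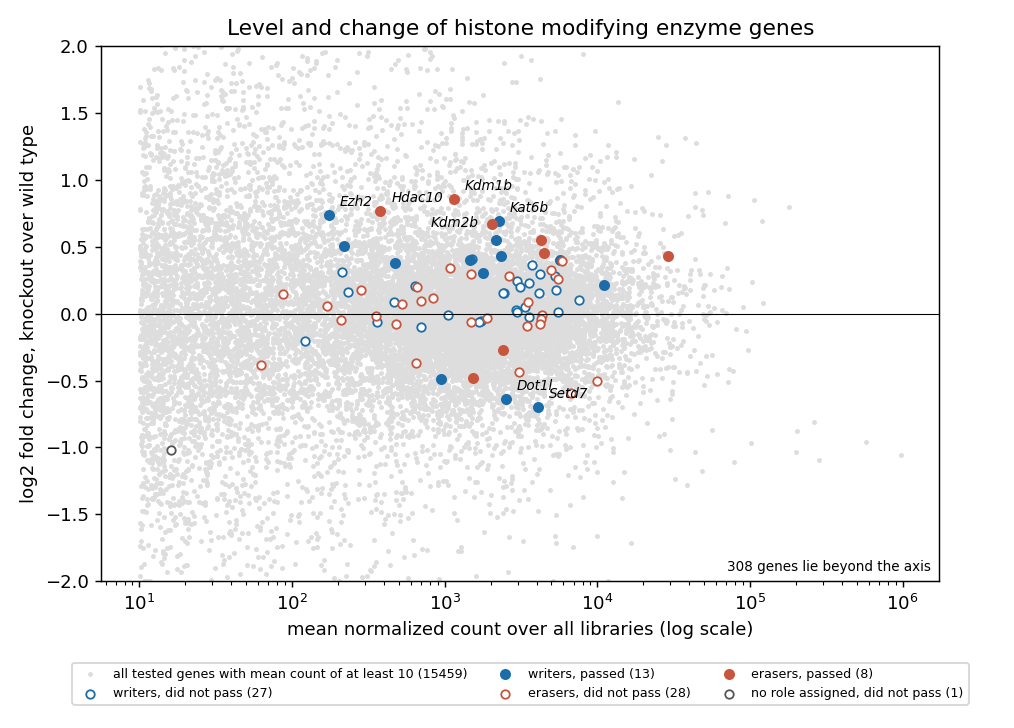
Log2 fold change (vertical axis, knockout over wild type) against mean normalized count (horizontal log axis) for writers (blue), erasers (red), Kdm4dl (dark grey) and 15459 tested genes with a mean count of at least 10 (light grey); filled points passed. The called enzyme genes span mean counts from 174 for Ezh2 to 29081 for Usp22, and none lies beyond log2 1; 308 grey genes lie beyond the axis.

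H3K9 methylation marks silent chromatin. Of its 6 writers, Ehmt1 (GLP) rose 1.46-fold, from an implied 1769 to 2589 (log2 0.55, SE 0.18, adjusted p = 0.0141, authors' deposited table), whereas Ehmt2 (G9a), with which it forms the active dimer, was at 0.01 (SE 0.09). The Ehmt2 interval ran from -0.17 to 0.19, below the lower bound of Ehmt1 at 0.20; the difference was not tested. Suv39h1 was likewise near 0 (-0.01, SE 0.09), and Suv39h2, at a lower count, was at 0.31 (SE 0.16, adjusted p = 0.153). Setdb1, the writer that is recruited to endogenous retroviruses, was at 0.24 (SE 0.10, adjusted p = 0.063). It is the only enzyme gene within 5 Mb of the targeted gene, 0.864 Mb away at chromosome 3 from 95323525 to 95357202. Setdb2 did not pass (-0.21, SE 0.22). On the eraser side Kdm4a rose 1.47-fold (log2 0.55, SE 0.16, adjusted p = 0.00509) and Kdm4b 1.37-fold (0.45, SE 0.16, adjusted p = 0.0213); both demethylate H3K9 and Kdm4a also H3K36. Their relatives Kdm4c (0.11, SE 0.12) and Kdm4d (-0.38, SE 0.31, mean count 63.0) did not pass. Kdm4dl, the pseudogene, was the lowest in count and the most negative of all, at -1.02 (SE 0.52, adjusted p = 0.151), and how reads of related genes were assigned is not given in the sources used here. Kdm3a (-0.06, SE 0.10) and Kdm3b (0.28, SE 0.14), which remove the lower methylation states of H3K9, did not pass; Kdm3b shares 24.6% of its exon bases with genes on the opposite strand. Kdm7a, which removes H3K9 and H3K27 methylation, was at -0.37 (SE 0.15, adjusted p = 0.0614).

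H3K36 methylation is laid down along transcribed genes by Setd2 and more broadly by the Nsd enzymes. Nsd2 rose 1.16-fold, from an implied 10263 to 11889 normalized counts (log2 0.21, SE 0.07, adjusted p = 0.0226 in the authors' deposited table). It was the smallest called change, seen at the second highest count of the 77 genes, and it too did not hold after that trend was taken out (adjusted p = 0.0657). Setd2 (0.29, SE 0.13, adjusted p = 0.088) and Nsd1 (0.10, SE 0.15) did not pass. Of the erasers of H3K36, Kdm2b, a demethylase that also brings a Polycomb complex to CpG islands, rose 1.59-fold from an implied 1586 to 2525 (log2 0.67, SE 0.17, adjusted p = 6.77e-04), and Kdm2a, its close paralog, was at 0.09 (SE 0.13, interval -0.17 to 0.35). Kdm8, of low count (87.2), was at 0.14 (SE 0.27).

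H4K20 methylation is built in steps. Kmt5a, which adds the first methyl group, was at -0.05 (SE 0.10, interval -0.24 to 0.13) in the authors' deposited table. Kmt5b and Kmt5c, which add the further groups, both rose, 1.35-fold (log2 0.43, SE 0.13, adjusted p = 0.0068) and 1.30-fold (0.38, SE 0.12, adjusted p = 0.0119). Their implied levels went from 1989 to 2676 and from 411 to 534. The intervals of Kmt5b and Kmt5c begin at 0.18 and 0.14, just above the upper bound of Kmt5a. The differences between these genes were not tested.

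**Figure D3:**
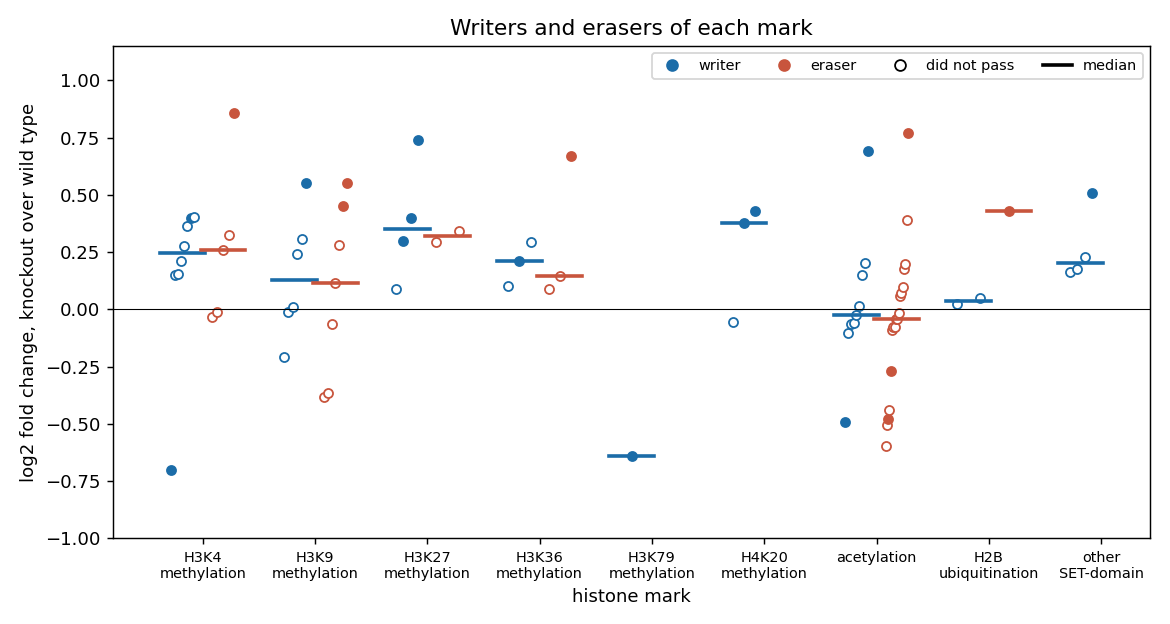
Log2 fold changes (vertical axis, knockout over wild type) of writers (blue) and erasers (red) by histone mark (horizontal axis); filled points passed and bars are medians. The medians of writers and erasers are 0.24 and 0.26 for H3K4, 0.13 and 0.11 for H3K9, 0.35 and 0.32 for H3K27, 0.21 and 0.14 for H3K36, -0.03 and -0.04 for acetylation, and 0.04 and 0.43 for H2B ubiquitination, whose eraser is Usp22 alone. Kdm7a, which also acts on H3K27, is counted under H3K9 only.

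Of the 9 genes counted as acetylation writers 1 rose and 1 fell, a called share of 22.2% beside the 21.8% of all tested genes. Kat6b (MORF), a subunit of a complex that acetylates histone H3, rose 1.61-fold from an implied 1731 to 2793 normalized counts (log2 0.69, SE 0.15, adjusted p = 9.67e-05, authors' deposited table). Its paralog Kat6a (MOZ) was at 0.15 (SE 0.17). Kat14, a subunit of the ATAC complex together with Kat2a or Kat2b, fell to 71.2% of wild type (log2 -0.49, SE 0.17, adjusted p = 0.0191). Of its exon bases 14.7% are shared with Pet117 on the same strand, so the gene of origin of some reads is uncertain. Other enzymes were near 0 with small SEs: Kat2a (0.02, SE 0.09), Kat5 (-0.06, SE 0.08), Kat7 (-0.03, SE 0.09) and Kat8 (-0.10, SE 0.11) all had intervals inside log2 0.5 of no change. Kat5 shares 12.1% of its exon bases with Rnaseh2c on the opposite strand. Kat2b was at -0.06 (SE 0.17), and Kansl1, a partner of Kat8, at 0.20 (SE 0.13).

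The 18 deacetylases gave 1 higher and 2 lower, a called share of 16.7% beside the 21.8% of all tested genes. Hdac10, a mainly cytoplasmic enzyme best known as a polyamine deacetylase, rose 1.70-fold in the authors' deposited table, from an implied 280 to 478 (log2 0.77, SE 0.15, adjusted p = 1.94e-05). Sirt3, the main deacetylase of the mitochondrial matrix, fell to 71.8% of wild type (log2 -0.48, SE 0.15, adjusted p = 0.00904), and Sirt2, which acts mainly in the cytoplasm, to 83.0% (-0.27, SE 0.09, adjusted p = 0.0126). Sirt3 shares 12.7% of its exon bases with genes on the opposite strand, and whether the counting used strand is not given in the sources used here. All 3 called deacetylases thus act largely outside the nucleus. Class I enzymes, of which Hdac1, Hdac2 and Hdac3 belong to the large nuclear corepressor complexes, did not pass. They were Hdac1 (0.20, SE 0.12), Hdac2 (0.39, SE 0.21), Hdac3 (-0.08, SE 0.06) and Hdac8 (-0.04, SE 0.16). Per exon length Hdac2 was the most abundant of them, at 1307 normalized counts per kb against 191 for Hdac1. The nuclear sirtuins Sirt1 (0.07), Sirt6 (-0.08) and Sirt7 (0.10) were near 0 with SEs from 0.14 to 0.16, as were the mitochondrial Sirt4 (0.06, SE 0.20) and Sirt5 (-0.02, SE 0.19). Hdac6, the main tubulin deacetylase (-0.09, SE 0.13), and Hdac11 (-0.04, SE 0.16) did not pass.

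Class IIa deacetylases shuttle between cytoplasm and nucleus with neuronal activity and bind Mef2 factors. Hdac5, at a mean count of 9974, was at -0.51 (SE 0.20, adjusted p = 0.0514), Hdac9 at -0.60 (SE 0.26, adjusted p = 0.0804) and Hdac4 at -0.44 (SE 0.22, adjusted p = 0.133), per the authors' deposited table. None passed, and the upper bounds of their intervals, -0.11, -0.09 and -0.02, lay just below 0. After the trend on exon length and GC was taken out, all 3 passed on the lower side, with adjusted p of 0.0219, 0.032 and 0.0486. Hdac4, the last of these, shares 22.4% of its exon bases with a gene on the opposite strand, so its value is uncertain. Hdac7, the member of the class with little expression here (41.9 normalized counts per kb), was at 0.18 (SE 0.15). The SEs of Hdac4, Hdac5 and Hdac9 were above the 0.17 that bounds the lower 75% of abundant tested genes. Hdac4, Hdac9 and the other genes that did not pass and stand outside the naming rule given below were named after their values were seen.

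Ubiquitin on H2B, the histone that H2BE is a variant of, is written by the ligase pair Rnf20 and Rnf40 and removed by Usp22 in the SAGA complex. Rnf20 was at 0.05 (SE 0.09, interval -0.12 to 0.22) and Rnf40 at 0.03 (SE 0.11, interval -0.19 to 0.25) in the authors' deposited table, so that changes beyond log2 0.25 lay outside both intervals. Usp22, at 29081 the most abundant of the 77 genes, rose 1.35-fold from an implied 24770 to 33391 (log2 0.43, SE 0.13, adjusted p = 0.00726). Among the marks with both writers and erasers here, H2B ubiquitination alone had a called eraser and no called writer, and it rests on 3 genes.

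Among SET-domain proteins whose main substrate is not a histone or is not settled, Setd4 rose 1.42-fold at a low count of 220 (log2 0.51, SE 0.17, adjusted p = 0.0174, authors' deposited table). Setd3, the actin histidine methyltransferase, was at 0.23 (SE 0.21), Setd5 at 0.18 (SE 0.12) and Setd6 at 0.16 (SE 0.21).

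For the 56 genes that did not pass, the 95% interval lay within log2 0.5 of no change in 34 and within log2 1 in 54. The exceptions to the wider bound were Hdac9 and Kdm4dl, both on the lower side. Of the 77 genes, 9 share over 10% of their exon bases with other genes. Among them are Hdac11 (17.9%), Suv39h1 (14.6%), Rnf40 (13.6%) and Kat5, each with genes on the opposite strand, so their values near 0 are less certain. The median SE over the 77 genes was 0.15, and over those with a mean count of at least 1000 it was 0.14, against 0.13 for all tested genes of that count.

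Other genes of the same machinery were read from 11 lists of partners and related enzymes, 161 genes in all, of which 159 were tested. Of these 30 rose and 11 fell (25.8% called), with a median log2 fold change of 0.12. The called share lay between the 21.8% of all tested genes and the 30.6% of abundant ones; 18.9% were higher and 6.92% lower, beside 11.0% and 10.9% of all tested genes. Subunits of deacetylase corepressors gave 11 higher and 4 lower of 36. In the authors' deposited table Ing1 (0.54, SE 0.12) and Brms1l (0.37, SE 0.11) of the Sin3 complex rose, and Gatad2a of the NuRD complex fell to -0.54 (SE 0.12). Acetyltransferase complexes gave 6 rises and 3 falls among 33 genes, Msl1 (0.23, SE 0.05) and Tada1 (0.42, SE 0.10) higher and Jade2 (-0.83, SE 0.21) lower. Subunits and partners of COMPASS, the complexes of the H3K4 writers, gave 3 higher and none lower of 13. These were Psip1 (0.39, SE 0.10), Paxip1 (0.37, SE 0.10) and Wdr5 (0.26, SE 0.09). Ash2l (0.13, SE 0.11), Rbbp5 (0.05, SE 0.14) and Dpy30 (-0.44, SE 0.25) were among those that did not pass.

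Beside the counts that follow, 11.0% of all tested genes were called higher and 10.9% lower. Partners of the Polycomb repressive complex 2 gave 1 higher and 1 lower of 11 (18.2% called). Lcor rose (0.60, SE 0.19). Jarid2, which recruits and stimulates the complex, fell (-0.46, SE 0.13, adjusted p = 0.00415, authors' deposited table), opposite in sign to Ezh1, Ezh2 and Suz12. The ligases of H2A and H2B ubiquitination, with the Polycomb repressive complex 1, gave 3 higher and 1 lower of 13. Rnf2, a catalytic subunit of that complex, rose to 0.76 (SE 0.15) and Pcgf3 to 0.25 (SE 0.07), and Pcgf5 fell to -1.49 (SE 0.28). The H3K9 methyltransferase partners gave 2 higher of 7, all 7 above 0, with Cbx5, which encodes the heterochromatin protein HP1 alpha, at 0.55 (SE 0.09) and Zfp644, a partner of the Ehmt dimer, at 0.34 (SE 0.11). Arginine methyltransferases gave 1 in each direction of 8 tested, Carm1 (0.47, SE 0.18; adjusted p = 0.0544 after the trend was taken out) and the brain-enriched Prmt8 (-0.68, SE 0.12). Demethylases without a Kdm symbol gave Riox2 higher (0.54, SE 0.17) and Phf8 lower (-0.58, SE 0.16) of 7. Further lysine methyltransferases gave Smyd5 higher (0.28, SE 0.10) of 12, and deubiquitinases gave Usp49 higher (0.49, SE 0.11) of 10. None of the 9 further acetyltransferases, Crebbp and Ep300 among them, was called.

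Exon length went with the fold change in the whole table. The median log2 fold change of tested genes with a mean count of at least 10 was -0.20 under 2000 exon bases and 0.08 from 8000 bases on, and the Spearman correlation across 15393 genes was 0.18. The enzyme genes are long: their median exon length was 5973 bases, against 3892 for all tested genes, and 27 of them had 8000 bases or more. Within that longest band their median was 0.18, and 6 rose and 2 fell, against 18.1% and 11.1% of all genes in it. From 4000 to 6000 bases it was 0.05 against 0.03, and from 6000 to 8000 bases 0.21 against 0.04. Across the 77 genes the Spearman correlation with exon length was 0.20, with 0.37 in the 40 writers and -0.12 in the 36 erasers. Taking out the trend left 14 higher and 9 lower: Ezh1 and Nsd2 lost their calls, and Hdac4, Hdac5, Hdac9 and Kdm7a gained them on the lower side.

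**Figure D4:**
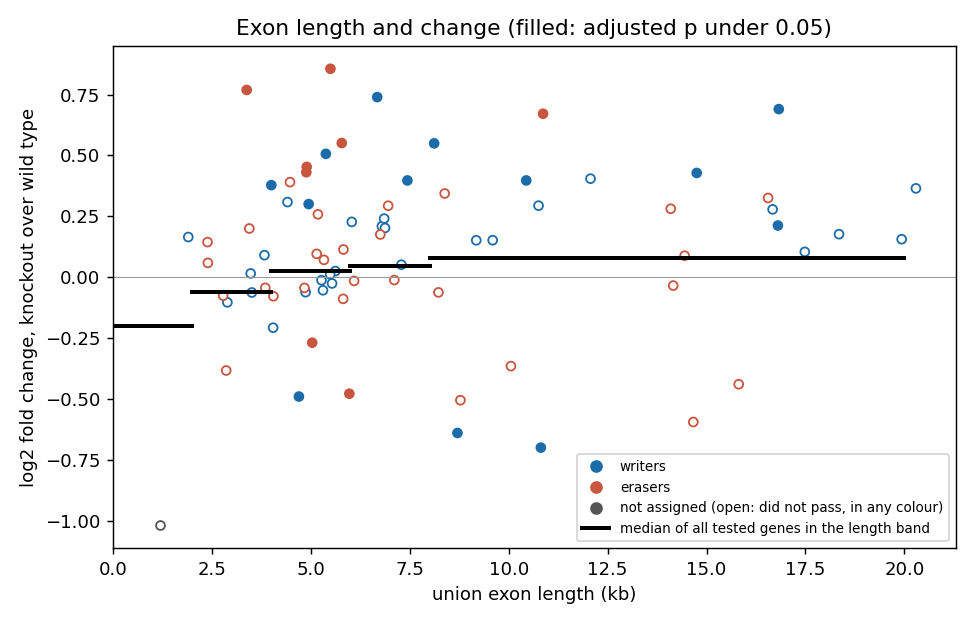
Log2 fold change (vertical axis, knockout over wild type) against union exon length in kb (horizontal axis) for writers (blue), erasers (red) and Kdm4dl (grey); filled points passed, and black bars are the medians of all tested genes with a mean count of at least 10 in 5 length bands, the last without an upper limit. The bars climb from -0.20 to 0.08, and the long genes Hdac4, Hdac5, Hdac9, Setd7 and Dot1l lie well below theirs.

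Markers of some cell types moved with the genotype. Of all tested genes, 11.0% were called higher and 10.9% lower. Of 9 markers of immature neurons 8 rose (median log2 fold change 1.06), with summed implied levels of 93629 normalized counts in wild type and 191811 in the knockout, and of 9 markers of GABAergic interneurons 4 fell (median -1.02, 103652 and 55366). Of 8 general neuron markers 2 rose and 1 fell. Astrocyte markers gave 1 higher of 8 (sums of 10620 and 20038). That gene, Slc1a2, made up most of both sums (9274 and 17705). Microglia markers gave 3 lower of 6 tested (sums of 149 and 49.8 over 8, with P2ry12 and Tmem119 too low to test). None of 8 proliferation markers passed (sums of 2635 and 2762). Endothelial and mural markers gave 4 lower of 7 tested (2387 and 1435). Most of these sums was Rgs5 (1525 and 1111), which did not pass. Oligodendrocyte lineage markers gave 1 higher of 7 tested (1579 and 1863). In bulk RNA, fewer cells of a type and less RNA per cell cannot be told apart, and the part of these shifts in the values of Ezh2 and the other enzyme genes was not tested.

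On the X chromosome lie 5 of the enzyme genes, and Kdm5c and Kdm6a are among the genes known to escape its inactivation. Their SEs were 0.20 each, against a median of 0.15 over the 77 genes, whereas Suv39h1, also on the X, had 0.09. Xist, which is transcribed from the inactive X of females, had a log2 fold change of 0.37 with an SE of 1.96, and the Y-linked Ddx3y (-0.12), Eif2s3y (0.07), Uty (-0.03) and Kdm5d (0.27) had SEs from 2.13 to 2.51 in the authors' deposited table. None of these passed, and their SEs were many times those of the enzyme genes. The X-linked Ddx3x (0.13, SE 0.16) and Eif2s3x (-0.10, SE 0.24) did not pass. The labels give no sex, and the part of sex in the errors of Kdm5c and Kdm6a was not tested.

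The promoters of 61 of the 77 genes were matched in RefSeq (86 windows of 300 bases). They held a median of 23 CpG pairs, against 7 over all 32851 windows, which include those of noncoding genes. The GC box stood in 64.0% of them against 35.7% of all. Of the other motifs searched on both strands, the ETS core CCGGAAG stood in 15.1% against 8.86%, the YY1 core ATGGCGG in 10.5% against 4.05%, TGACG of the cyclic AMP response element in 30.2% against 20.8% and its full form TGACGTCA in 1.16% against 1.79%. The E-box CACGTG stood in 8.14% against 7.15% and the NRF1 core GCATGCGC in 2.33% against 2.71%. The GC box was about as frequent among the windows of genes that rose (10 of 16) as among those of genes that fell (4 of 6).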

How the data were processed

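RNA sequencing compared 4 wild-type and 4 knockout libraries, grouped by the genotype in the titles. Reads were mapped to mm10 and compared with DESeq2, per the submitters' processing notes, which also list DESeq. Versions, aligner, counting tool and strand setting: not given in the sources used here. As deposited, the signal column (baseMean) averages normalized counts over the 8 libraries. Fold change and SE were deposited in log2 units. The Wald statistic is the deposited score, checked to equal the fold change over its SE within 2.86e-07. The deposited p-value and adjusted p-value were used as given, and 18085 genes had an adjusted p. Depth per library was not analysed here, and no count model was run.

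Intervals are normal 95% intervals. Genes were matched by Ensembl identifier to GENCODE M21 (GRCm38; 26032 rows), which gave positions, union exon length, GC content of the longest transcript and shared exon bases. Roles and partner lists came from known function. The enzyme genes and the lists were chosen with earlier results of these data known. Genes named by rule are the called ones (up to 4 per mark, side and direction, by adjusted p) and, where none is called, the 2 of highest count. The rule adds the 5 largest changes each way, the 3 most abundant, up to 3 called genes per partner list and sex-linked genes. It also adds enzyme genes within 5 Mb of the target. The other enzyme and partner genes were named after their values were seen. Promoters are RefSeq windows (GRCm38.p6), and for 5 of the 6 shown (not Dot1l) the 30 bases after the start stood in a GENCODE transcript. Alternatives were other thresholds, a t distribution, an empirical null (median and median absolute deviation) and other member rules. A further one was removal of a linear trend of the Wald statistic on log2 exon length and GC. Only the code for the p-value adjustment, the trend removal and the empirical null was tested on simulated data. In that simulation far fewer genes changed than were called here. Python 3.11.15, numpy 2.4.6, pandas 2.3.3, scipy 1.17.1 and matplotlib 3.10.9 were used.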

Additional observations from a re-analysis of the deposited data

How the results depend on the processing

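No paired analysis was possible because the deposited table holds no values per library; for the same reason the planned fits without each library were not run. When t with 6 degrees of freedom or an empirical null (scale 1.95) took the place of the normal, 0 enzyme genes, writers and erasers passed in either direction by the DESeq2 statistic, against 1 and 84 genes in the whole table, respectively. The smallest adjusted p, that of Kdm1b, was 0.0661 and 0.117, and 31 of the 77 had an unadjusted p under 0.05 in the deposited table. At an adjusted p of 0.01, 11 passed (8 higher, 3 lower), with 5 writers (3 higher) and 1 eraser lower. At 0.1, 8 were lower, and 13 erasers passed, 5 of them lower. With the length and GC trend taken out 9 were lower, 6 of them erasers. A further alternative was meant to keep catalytic nuclear enzymes only. It left out non-catalytic subunits, Hdac6, Hdac10, mitochondrial and cytoplasmic sirtuins, and enzymes with mainly non-histone, unsettled or debated activity. Kmt2e and the class IIa deacetylases were kept. There 2 were lower and 5 of 29 erasers passed, 0 of them lower. All other counts stayed within 1.5 times, and the medians of writers and erasers stayed above 0 under each alternative that moves them, centring on genes with a mean count of at least 100 (median -0.01) included. No called enzyme gene changed sign when fold changes were moved. Of the others, Kdm5c and Sirt5 did with the empirical null, Kdm5c and Suv39h1 with the centring and Ehmt2 (to -0.01) with the trend taken out, all from within 0.02 of 0. The sex-linked genes that turned had not passed either: Ddx3y (0.10) and Uty (0.23) with the empirical null, and Xist (-0.58) and Kdm5d (-0.76) with the trend taken out.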
